A study of Mus musculus with 68 samples.

Results

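Oligodendrocytes, the cells that wrap axons of the central nervous system in myelin, were followed through 29 genes in the prefrontal cortex of mice with and without a mutant copy of Adnp. The genes were listed by name for their roles: 5 are used as markers of oligodendrocyte precursors, 3 of differentiating cells, 5 encode transcription factors of the lineage, 7 encode myelin proteins, 3 serve myelin lipid synthesis or acetate supply and 6 are other genes of mature oligodendrocytes. They were found by symbol among the 18088 genes of the deposited table. All 29 were present, and all 29 passed the filter on low values that left 17922 genes for testing. The libraries came from 68 C57BL/6J mice killed on postnatal day 25, and each library was a TruSeq stranded preparation of polyadenylated RNA.

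Animals labelled HT were heterozygous for Adnp, a chromatin and transcription regulator, and those labelled WT were not. The pups had been given vehicle, the serotonin reuptake inhibitor fluoxetine or the mood stabiliser lithium through their mother's milk from day 3 to day 24. The vehicle arms held 8 female and 8 male HT and 8 female and 7 male WT mice, and each fluoxetine arm held 5 females and 5 males. The lithium arms held 4 female and 5 male HT and 5 female and 3 male WT mice. The labels do not give the mother or litter of a pup, so p-values measure the spread between these libraries. All pups of a drug arm were exposed by way of a treated mother, and effects on the pup and on the mother cannot be told apart.

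Oligodendrocyte precursors are dividing glia that carry the PDGF receptor Pdgfra and the proteoglycan NG2, encoded by Cspg4. Some of them leave the cell cycle, pass through a short premyelinating stage marked by Gpr17, Enpp6 and Bcas1, and then make myelin under the factors Sox10, Olig2 and Myrf. In the mouse cortex this wave of myelination is under way in the weeks around weaning, and white matter beneath the cortex is richer in these cells than the grey matter.

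The 250 bases upstream of the most upstream annotated start are printed for 4 myelin genes and 2 precursor genes named in the results below. They are read 5′ to 3′ on the gene's strand from RefSeq for GRCm38.p6. Capitals mark 2 motifs, searched on both strands: ACAAAG, the core recognised by Sox factors, and CTGGNAC, recognised by Myrf. Matches of the motifs did not overlap in these windows. The windows are chr17:37023399-37023648 (minus strand) for Mog, chr7:30914923-30915172 (minus) for Mag, chr2:127656696-127656945 (minus) for Mal, chr3:31149670-31149919 (plus) for Cldn11, chr5:75152001-75152250 (plus) for Pdgfra and chr13:89742513-89742762 (minus) for Vcan, the last lying within the predicted gene Gm4117. Of these 6 genes, Pdgfra and Vcan passed a test between genotypes and the 4 myelin genes did not. The further genes that passed one were Tnr at chr1:159523769-159931729, C1ql1 at chr11:102939264-102946688 and Enpp2 at chr15:54838901-54952892 (GENCODE on GRCm38).
Mog: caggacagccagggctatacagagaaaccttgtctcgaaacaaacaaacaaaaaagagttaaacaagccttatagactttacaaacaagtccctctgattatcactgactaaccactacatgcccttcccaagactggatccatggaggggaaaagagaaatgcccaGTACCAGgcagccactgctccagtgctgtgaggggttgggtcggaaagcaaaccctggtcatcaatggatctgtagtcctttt
Mag: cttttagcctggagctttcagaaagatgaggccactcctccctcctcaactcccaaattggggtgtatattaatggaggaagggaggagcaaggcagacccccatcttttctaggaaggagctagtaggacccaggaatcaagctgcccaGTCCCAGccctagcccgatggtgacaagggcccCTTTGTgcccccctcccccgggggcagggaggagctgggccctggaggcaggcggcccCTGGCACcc
Mal: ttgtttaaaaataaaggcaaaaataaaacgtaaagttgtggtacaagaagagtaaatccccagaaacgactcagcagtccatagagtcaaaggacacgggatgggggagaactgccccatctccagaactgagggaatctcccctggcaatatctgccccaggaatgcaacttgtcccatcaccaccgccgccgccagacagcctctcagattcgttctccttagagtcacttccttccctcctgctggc
Cldn11: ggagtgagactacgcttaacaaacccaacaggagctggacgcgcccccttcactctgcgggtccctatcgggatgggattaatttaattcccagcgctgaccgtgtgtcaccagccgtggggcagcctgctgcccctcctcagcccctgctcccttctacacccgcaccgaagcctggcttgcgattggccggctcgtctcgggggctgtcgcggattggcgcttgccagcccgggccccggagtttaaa
Pdgfra: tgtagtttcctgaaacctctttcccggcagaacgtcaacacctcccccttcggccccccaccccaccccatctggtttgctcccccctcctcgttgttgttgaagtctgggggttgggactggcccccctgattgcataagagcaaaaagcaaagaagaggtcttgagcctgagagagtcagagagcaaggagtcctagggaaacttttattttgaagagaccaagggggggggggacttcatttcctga
Vcan: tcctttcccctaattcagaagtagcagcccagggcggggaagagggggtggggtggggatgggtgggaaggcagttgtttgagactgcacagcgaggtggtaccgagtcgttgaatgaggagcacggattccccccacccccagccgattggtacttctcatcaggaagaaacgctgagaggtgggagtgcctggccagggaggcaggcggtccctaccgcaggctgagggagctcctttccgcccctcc
RefSeq entries were matched for 19 of the 29 genes. The 10 others were Fa2h, Mbp, Myrf, Enpp2, Gpr17, C1ql1, Olig1, Bcas1, Trf and Sox10. ACAAAG stood in the window of 5 of the 19 (26.3%: Cnp, Mag, Mobp, Opalin and Tnr), against 16.5% of the windows of 27025 genes. CTGGNAC stood in 4 of the 19 (21.1%: Cnp, Mag, Mog and Tnr), against 15.9% of all genes. A match describes letters and is not a bound site.

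Per kilobase of exon, 5 of the 7 myelin protein genes were the most abundant of the 29. Mbp, the basic protein that compacts the cytoplasmic faces of myelin, had a mean of 7889 normalised counts per kilobase, above 99.5% of all genes. The next highest were Cnp (2488), an enzyme of the inner myelin channels, and Mobp (2363), another basic protein of compact myelin. Cldn11, the tight junction claudin of myelin, followed at 2103 and the proteolipid Mal at 1833. Olig1, the highest of the transcription factors at 1255, came before the myelin genes Mag (1101) and Mog (946). Among the precursor genes Tnr, an extracellular matrix protein that neurons also make, reached 597 per kilobase, whereas Pdgfra stood at 179, Vcan (versican, a matrix proteoglycan) at 64.7 and Cspg4 at 58.7. Aspa, which frees acetate for lipid synthesis, was the lowest at 40.0.

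The genes also differed in how far they spread between libraries. Across all 68 libraries the ratio of the highest to the lowest value ran from 1.70 for Tnr to 4.04 for Mag, the myelin-associated glycoprotein of the innermost wrap. Within the 12 groups of genotype, drug and sex, the SD of the log2 level was 0.13 for Tnr and 0.44 for Mag, and it exceeded 0.3 for 17 of the 29 genes. In bulk tissue, fewer cells of a type and less RNA per cell cannot be told apart.

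**Figure D1:**
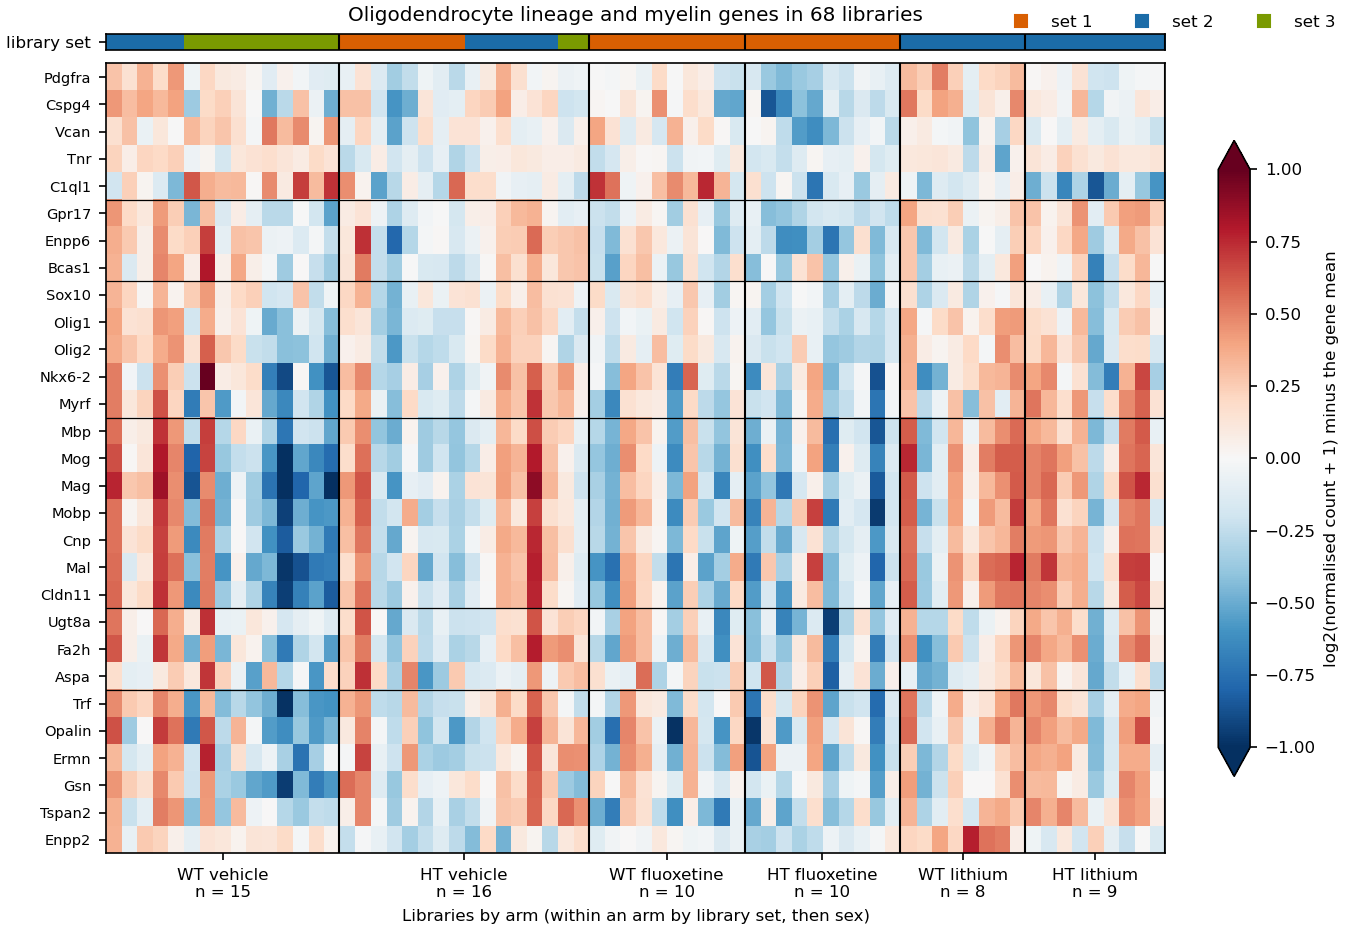
Levels of the 29 genes, by role, in each of the 68 libraries, as log2(normalised count + 1) minus the gene's mean over all libraries. The colour strip gives the library set; the 7 myelin protein genes vary as a block, and the lowest values of Mog, Mag, Mal and Cldn11 lie in set 3 of the WT vehicle arm.

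The myelin protein genes varied together from library to library. With the 12 group means removed, the 21 pairs of these 7 genes had a median Pearson r of 0.95 (range 0.87 to 0.98) over 68 libraries. All values of a library share its dissection, depth and normalisation. Of the other 22 genes, 11 had an r of at least 0.8 with the mean level of the 7, and 3 had an r under 0.2. Cldn11 (0.99) and Mog (0.98), the outermost glycoprotein of the sheath, were closest to the mean of the rest. Outside the 7, Fa2h, which hydroxylates myelin lipids, and Trf, the iron carrier transferrin, both stood at 0.95, and Myrf and Opalin at 0.91. Sox10 (0.63) and Aspa (0.53) were looser, and the mature gene Enpp2 stood at 0.054. The precursor genes were mixed: r was 0.46 for Pdgfra, 0.45 for Cspg4 and 0.39 for Tnr, but -0.25 for Vcan and -0.32 for C1ql1, a secreted synaptic organiser made by precursors. Among themselves, the 10 pairs of these 5 genes had a median r of 0.19 (-0.47 to 0.79).

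The same library-to-library axis followed markers of tissue next to the prefrontal cortex. The mean level of the myelin protein genes had an r of 0.78 with 14 striatal neuron markers (0.73, 0.68 and 0.82 within library sets 1, 2 and 3) and of -0.50 with olfactory bulb markers (-0.49, -0.092 and -0.40), with group means removed throughout. Vcan and C1ql1 went the other way, with an r of 0.57 and 0.61 with the olfactory bulb markers. Pdgfra and Cspg4 followed endothelial markers (0.77 and 0.75). The cortical markers Slc17a7 and Neurod2 were present in every library, but the summed level of the olfactory bulb list ranged over the arms from 243 to 22135 and that of the striatal list from 9866 to 35151. Of the defining bulb markers Tbx21 was at 0 in 2 libraries and Barhl2 in 3. The part of the dissection in the differences below was not tested. Marker values are given beside the genotype comparisons, fluoxetine in HT and lithium in each genotype. They are not given for fluoxetine in WT, the differences of drug effects or sex.

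**Figure D2:**
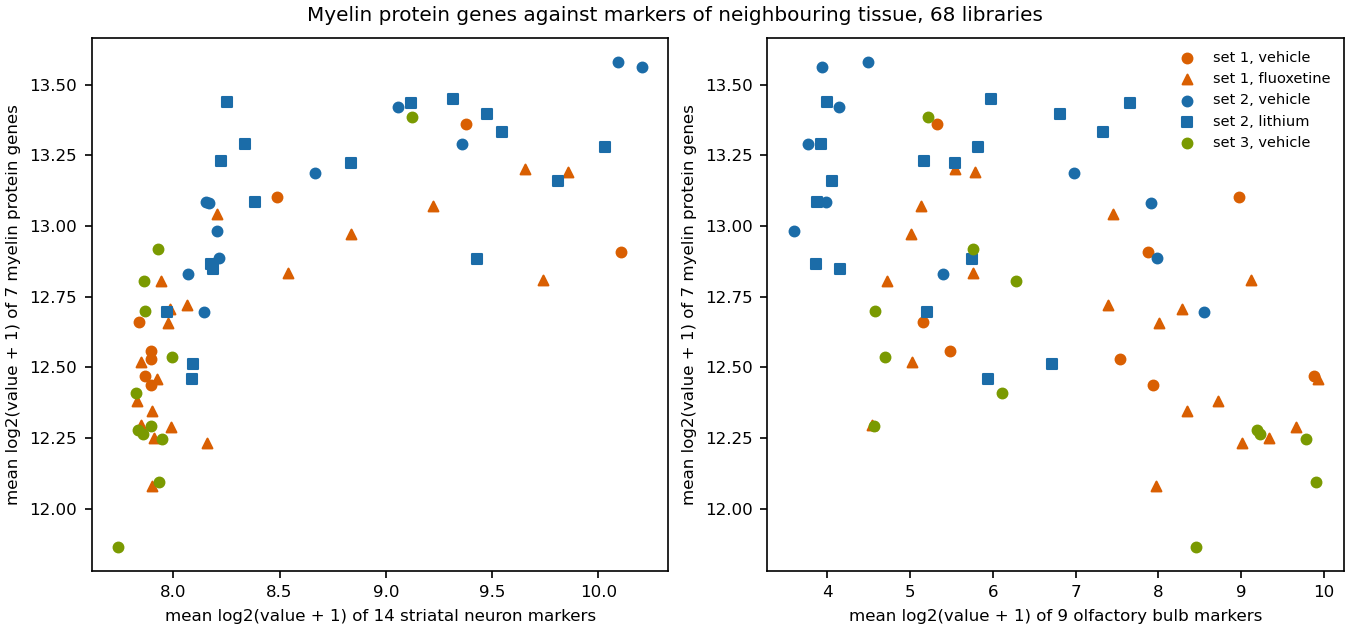
Mean log2(value + 1) of the 7 myelin protein genes against that of the striatal (left) and olfactory bulb (right) markers, 1 point per library, coloured by library set and shaped by drug. Libraries with more striatal marker RNA held more myelin RNA (r 0.78 with group means removed), and the relation with olfactory bulb markers was inverse (r -0.50).

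Depth was 22.4M to 37.5M recovered reads per library (M for mega; median 30.7M). Adnp itself did not check the labels: its level was higher, not lower, in HT. Under vehicle the log2 difference was 0.32 (SE 0.072, limma adjusted p = 0.0021), with 1730 to 2845 normalised counts in HT and 1077 to 2290 in WT. Within library set 2, defined next, the vehicle difference was 0.19 (adjusted p = 0.88). The fluoxetine arms differed by 0.32 (limma adjusted p = 0.039, and 0.0042 with library set made part of the group). For the lithium arms the difference was 0.25 (limma adjusted p = 0.19, and 0.059 with library set made part of the group). HT and WT below therefore mean the libraries labelled so. The libraries were also divided into 3 sets by the levels of 361 pseudogenes, a split that the labels do not name. Every fluoxetine library lay in set 1 and every lithium library in set 2. The HT vehicle libraries were spread over set 1 (8), set 2 (6) and set 3 (2), and the WT vehicle libraries over set 2 (5) and set 3 (10). Comparisons that use vehicle libraries are therefore given a second time with vehicle libraries of the matching set, where such libraries exist. The comparisons share arms with each other, and each is given on its own values.

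Between genotypes under vehicle, the precursor genes Vcan and Tnr and the mature gene Enpp2 were lower in HT. By limma on log2(value + 1) with Benjamini-Hochberg adjustment over all 17922 genes, 3 of the 29 genes passed an adjusted p of 0.05. All 3 were lower in HT. Over all genes 15.0% passed in either direction and 7.21% lower, so the share was close to the background. Vcan had 637, 913 and 1071 normalised counts (lowest, median and highest of 16) in HT and 884, 1081 and 1334 in the 15 WT libraries. All 16 HT values lay below the WT median and 8 lay below every WT value, a log2 difference of -0.24 (SE 0.068, adjusted p = 0.013).

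Tnr, which links proteoglycans of the matrix around axons and precursors, had 6193, 7575 and 8269 in HT and 6760, 8412 and 8990 in WT. The ranges overlapped, but again all 16 HT values were below the WT median (-0.17, SE 0.047, adjusted p = 0.011). Enpp2, or autotaxin, an enzyme of mature oligodendrocytes that makes lysophosphatidic acid and is also abundant in choroid plexus, had 4191, 5198 and 6673 in HT against 5459, 6341 and 7387 in WT. In HT, 14 of 16 values lay below the WT median and 9 below every WT value (-0.24, SE 0.057, adjusted p = 0.0031). Across libraries, the r of Enpp2 with the choroid plexus markers was -0.07 with group means removed.

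No other gene passed. All 5 precursor genes had negative estimates (median -0.17), with Pdgfra at -0.13 (adjusted p = 0.080). The 7 myelin protein genes had estimates above 0, with a median of 0.22, Mag at 0.32 (adjusted p = 0.15) and Mbp near 0 (adjusted p = 0.99). Over the 29 genes 17 estimates were positive and 12 negative, with a median of 0.047, and the medians over all genes tested lay between -0.018 and 0.012 in all 10 comparisons.

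Within library set 2, where 6 HT and 5 WT vehicle libraries could be compared, none of the 29 passed with limma (3 at an unadjusted p under 0.05, against 0.536% of all genes passing after adjustment). There Enpp2 was at -0.30 (adjusted p = 0.22), Tnr at -0.16 (0.79) and Vcan at -0.057 (1.0). Set 3 held 2 HT libraries, both male, and 10 WT libraries, too few for a contrast of both sexes. There Enpp2 had 6253 and 6582 in HT, inside the WT values of 5459, 6309 and 6650, and Tnr had 7977 and 8137, inside 6760, 8280 and 8697. Vcan had 834 and 958 against 910, 1135 and 1334. So in set 3 both HT values of Tnr and of Vcan were below the WT median, and those of Enpp2 lay on either side of it. Set 1 held 8 HT and no WT vehicle libraries, so genotype and library set cannot be told apart there. The HT vehicle medians in sets 1 and 2 were 6775 and 7994 for Tnr, 5014 and 5360 for Enpp2, and 870 and 952 for Vcan. The part of set 1 in the calls over all sets was not tested. Within set 2, the myelin protein median was -0.18, the opposite sign to the value over all sets. In the comparison over all sets the striatal markers had a median of 0.042 and the olfactory bulb markers of 0.19; within set 2 these were -0.55 and 1.58, and the part of these tissues was not tested.

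Between genotypes under fluoxetine, where both arms lay in set 1, the precursor genes Vcan and C1ql1 were lower in HT. No other of the 29 passed, against 1.98% of all genes in either direction and 0.653% lower. Vcan had 600, 785 and 942 in the 10 HT libraries and 820, 969 and 1213 in the 10 WT libraries. All 10 HT values were below the WT median and 6 were below every WT value (-0.32, SE 0.085, adjusted p = 0.024). C1ql1 had 165, 252 and 307 in HT and 243, 346 and 464 in WT, with all 10 HT values under the WT median and 4 under the whole WT range (-0.49, SE 0.13, adjusted p = 0.021).

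Pdgfra was at -0.21 (adjusted p = 0.073) and Cspg4 at -0.32 (0.19), and the 5 precursor genes had a median of -0.32. With library set made part of the group in the fit, Pdgfra passed too (-0.21, adjusted p = 0.018), with Vcan and C1ql1 at 0.016 and 0.0075, against 2.85% of all genes in either direction and 1.07% lower. Estimates were negative for 27 of the 29 genes (median -0.14), with the myelin proteins at a median of -0.12. The calls were close to the threshold: Vcan lost its call without any one of 6 libraries (female HT replicates 4 and 5, male HT replicate 1, female WT replicate 1, male WT replicates 1 and 3; -0.28 to -0.31, adjusted p to 0.080), and C1ql1 without any one of 3 (female HT replicate 5, female WT replicate 1, male WT replicate 3; adjusted p to 0.072). Olfactory bulb markers, which Vcan and C1ql1 followed across libraries, had a median log2 difference of 0.34 here, and their summed level was 596, 5226 and 12425 in HT and 501, 2670 and 22135 in WT. Astrocyte markers had a median of -0.067, endothelial markers of -0.093 and mural cell markers of -0.18, none of them passing over all sets. Their part was not tested.

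Between genotypes under lithium, where both arms lay in set 2, Enpp2 and Pdgfra were lower in HT, against 2.51% of all genes in either direction and 1.03% lower. Enpp2 had 4965, 5470 and 6852 normalised counts in the 9 HT libraries and 6084, 7206 and 9941 in the 8 WT libraries. All 9 HT values lay below the WT median and 7 below every WT value (-0.42, SE 0.078, adjusted p = 0.00033). The highest WT value, in female replicate 5, came with a choroid plexus list sum of 6268, against a median of 362 for that arm. Without this library the difference was -0.37, and Enpp2 passed in each of the 17 fits that left out 1 library (adjusted p to 0.0051).

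Pdgfra, the receptor that keeps precursors dividing, had 1547, 1760 and 1974 in HT and 1668, 2108 and 2536 in WT under lithium. All 9 HT values were below the WT median, although the ranges overlapped and only 2 values lay under the whole WT range (-0.27, SE 0.073, adjusted p = 0.027). Leaving out any one of 6 libraries (female HT replicate 3, male HT replicates 1 and 2, female WT replicate 3, male WT replicates 2 and 3) ended this call (adjusted p to 0.073). In the fit by library set both genes passed (Pdgfra adjusted p = 0.0046, Enpp2 0.00022), against 4.49% of all genes in either direction and 2.34% lower. The myelin protein median was -0.018. The endothelial markers that Pdgfra followed across libraries had a median log2 difference of -0.068 (none of 11 passed), with a summed level of 9305, 9812 and 11932 in HT and 9250, 10528 and 11957 in WT. Mural markers were at -0.12, astrocyte markers at -0.11 (1 of 12 lower) and striatal markers at 0.48. The part of these cells was not tested.

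**Figure D3:**
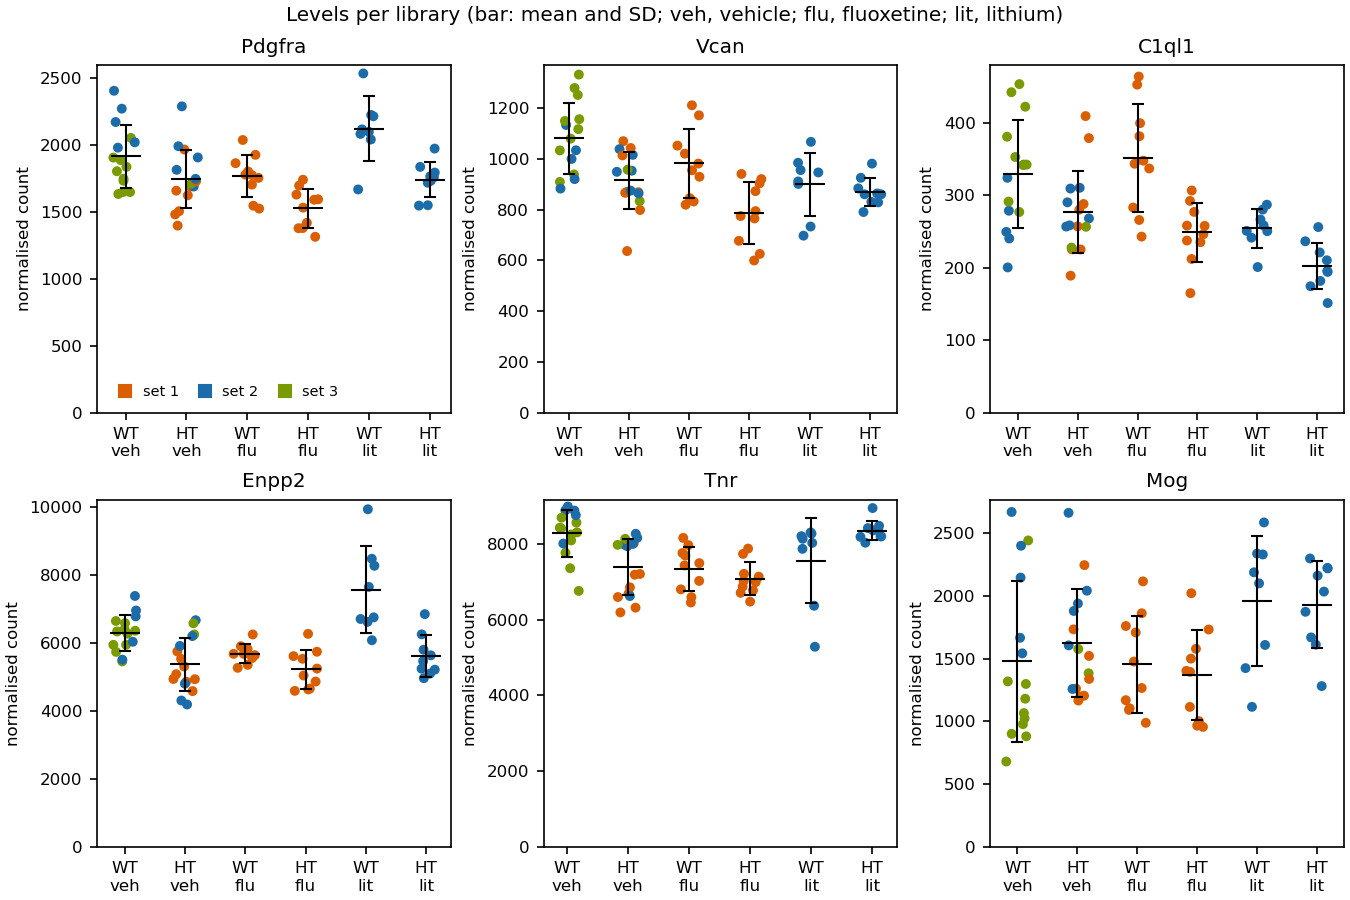
Normalised counts of 6 of the genes in every library by arm, with the mean and SD as bars, coloured by library set. The medians of Vcan and Pdgfra are lower in HT than in WT in each drug arm. Under lithium 7 of 9 HT values of Enpp2 lie below all WT values, and the spread of the WT vehicle arm is wide for Mog.

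Fluoxetine against vehicle in HT gave 29 negative estimates of 29, but 1 call. The median was -0.25 over the 29 genes and -0.28 over the myelin proteins, and 12 genes had an unadjusted p under 0.05. Only Enpp6, a phosphodiesterase of newly forming oligodendrocytes, passed, lower, against 1.22% of all genes in either direction and 0.809% lower. It had 270, 350 and 503 in the 10 fluoxetine libraries and 261, 475 and 746 in the 16 vehicle libraries, which overlapped widely, with 9 of 10 fluoxetine values below the vehicle median (-0.42, SE 0.11, adjusted p = 0.035). This call was lost in 13 of the 26 fits that left out 1 library (adjusted p to 0.098).

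Ugt8a, which makes the myelin lipid galactosylceramide, was at -0.38 (adjusted p = 0.10), Mag at -0.45 (0.21) and Mbp at -0.29 (0.39). Within set 1, with 10 fluoxetine and 8 vehicle libraries, 26 of 29 estimates were negative with a median of -0.12, none passed with limma (4 at an unadjusted p under 0.05; 0.167% of all genes passing), and Enpp6 was at -0.27 (0.43). The olfactory bulb markers had a median of 0.81 over all sets, and 4 of 11 endothelial and 4 of 9 mural markers were lower; their part was not tested.

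Fluoxetine against vehicle in WT had no vehicle library in the matching set, so drug and library set cannot be told apart. Tnr passed, lower, against 5.43% of all genes in either direction and 2.29% lower: it had 6454, 7464 and 8162 under fluoxetine, with all 10 values below the vehicle median given above (-0.18, SE 0.054, adjusted p = 0.039). The call was lost in 12 of the 25 fits without 1 library (adjusted p to 0.088). Of the 29 estimates 20 were negative (median -0.050), with the myelin proteins at 0.054. None of the 29 genes passed the test for a fluoxetine effect that differed between genotypes with limma (3 at an unadjusted p under 0.05; edgeR called none of them either), and no gene of the table passed (0 of 17922). The median of the difference was -0.20, with Mag at -0.53 (adjusted p = 0.38).

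Lithium against vehicle in WT gave the most calls: 10 of the 29 genes passed, against 36.1% of all genes (18.6% higher, 17.5% lower), so the share was close to the background. Of the 10, 7 were higher with lithium (4 myelin protein genes, Olig1, Trf and Enpp2) and 3 precursor genes were lower. Mog had 1117, 2146 and 2588 in the 8 lithium libraries and 680, 1299 and 2672 in the 15 vehicle libraries, where 7 of 8 lithium values lay above the vehicle median but inside the vehicle range (0.54, SE 0.19, adjusted p = 0.024). Mal, with 3733, 6853 and 8214 against 2467, 3621 and 7792, had all 8 above the median (0.60, SE 0.19, adjusted p = 0.013).

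The other genes higher with lithium were Mag (0.51, adjusted p = 0.036), Cldn11 (0.49, 0.026), Trf (0.43, 0.027), Olig1 (0.25, 0.045) and Enpp2 (0.26, 0.0036). Cnp (0.37, 0.056), Mobp (0.40, 0.082) and Mbp (0.24, 0.25) did not pass. Vcan (-0.27, 0.012), Tnr (-0.17, 0.021) and C1ql1 (-0.32, 0.041) were lower, with all 8 lithium values of each below the vehicle median. Olfactory bulb markers had a median of -1.12 in this comparison and striatal markers of 0.18, and 8 of 11 meningeal markers were lower.

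Within set 2, which held all 8 lithium but only 5 of the vehicle libraries, none of these calls held. Mog in those 5 vehicle libraries had 1544, 2148 and 2672, a median level with that of the lithium arm, whereas in the 10 vehicle libraries of set 3 it had 680, 1046 and 2444. Mag followed the same split, with 5122, 5869 and 7670 in set 2 and 1961, 2745 and 5898 in set 3. Within set 2 none of the 29 genes passed with limma (2 at an unadjusted p under 0.05; 0.664% of all genes passing), and 26 of 29 estimates were negative (median -0.14).

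Of the 10 genes called over all sets 6 had the opposite sign within set 2: Mog (-0.091), Mag (-0.24), Cldn11 (-0.13), Trf (-0.13), Olig1 (-0.070) and C1ql1 (0.043). Mal was at 0.0018. Tnr (-0.24, adjusted p = 0.085), Vcan (-0.14, 0.67) and Enpp2 (0.21, 0.33) kept their sign without passing. Set 2 vehicle libraries had a striatal list sum of 13546, 19396 and 35151 against 9866, 10650 and 18219 in set 3 and 13238, 15585 and 22535 under lithium. The part of the striatal tissue was not tested.

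**Figure D4:**
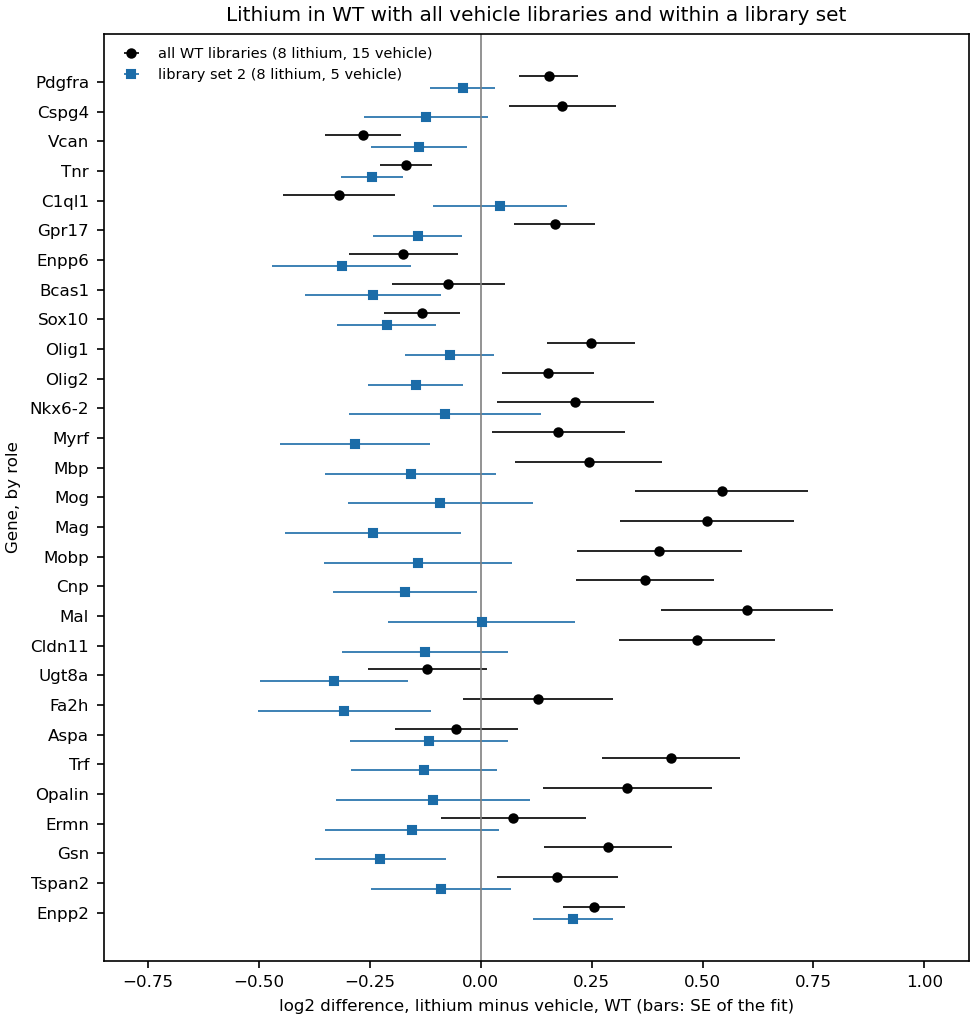
Lithium minus vehicle in WT for each of the 29 genes, as log2 difference with its standard error, with all 15 vehicle libraries (circles) and with the 5 of library set 2 (squares). The myelin protein genes move from a median of 0.49 to one of -0.14.

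The library sets of the WT vehicle arm differed from each other in these genes. Set 3 against set 2, both WT vehicle, gave 18 of the 29 genes lower and 1 higher (42.4% of all genes called, 21.4% lower and 21.0% higher), with Mag at -1.10, Mog at -0.92, Cldn11 at -0.89, Mal at -0.86 and Mbp at -0.57. C1ql1 was the gene that was higher (0.53). Striatal markers had a median of -1.11 (11 of 14 lower) and olfactory bulb markers of 2.64 (8 of 9 higher) in the same contrast.

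Leaving out 1 WT library also moved the lithium count, from 2 genes without male lithium replicate 2 to 14 without male vehicle replicate 6, with 5 without female lithium replicate 1 or male lithium replicate 3. Mal and Enpp2 passed in all 23 such fits. Tnr was at -0.069 without male lithium replicate 2 (adjusted p = 0.38), which holds the lowest lithium value of 5285, and at -0.13 without female lithium replicate 5. Vcan (-0.19 without male lithium replicate 2), Mog, Cldn11 and Trf lost their calls in 1 to 4 fits, and Mag, Olig1 and C1ql1 in 12, 13 and 13. EdgeR on the recovered reads called 6 genes, 3 higher and 3 lower. By sex, 9 genes passed in males (23.8% of all genes, 13.1% higher and 10.7% lower), among them Mal (0.98), Mog (0.92) and Tnr (-0.30). These rest on 3 lithium libraries, all of set 2, against 7 vehicle libraries, 5 of set 3 and 2 of set 2. The 2 of set 2 had 2672 and 2148 for Mog, against 2190, 2333 and 2340 under lithium. For Mal they had 7792 and 7066, against 7117, 7237 and 8214. For Tnr they had 8761 and 8990, against 8029, 5285 and 7872.5. The difference between the sexes in these effects was not tested.

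Lithium against vehicle in HT called C1ql1 alone, lower, against 1.52% of all genes in either direction and 0.491% lower. It had 151, 195 and 256 in the 9 lithium libraries and 189, 263 and 409 in the 16 vehicle libraries, with all 9 below the vehicle median (-0.44, SE 0.12, adjusted p = 0.042). Of the 29 estimates 23 were positive (median 0.12), with the myelin proteins at 0.24. Within set 2, with 6 vehicle libraries, C1ql1 was at -0.49 (adjusted p = 0.13) and the myelin protein median at 0.034, and none of the 29 passed with limma (1 at an unadjusted p under 0.05; 0.162% of all genes passing). The call over all sets was lost in 12 of 25 fits without 1 library. The olfactory bulb median was -1.16 and the striatal 0.63 in this comparison.

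Tnr was the only gene of the 29 to pass the test for a lithium effect that differed between genotypes, against 2.80% of all genes in either direction and 1.15% with the same sign. Its level under lithium was 8033, 8360 and 8950 in HT and 5285, 8084 and 8304 in WT, while under vehicle the HT level was the lower one. The difference of the effects was 0.35 (SE 0.080, adjusted p = 0.020), from 0.19 in HT and -0.17 in WT. Without male WT lithium replicate 2 it was 0.26 (adjusted p = 0.13), and it also lost its call without female WT lithium replicate 5 (0.32) or female HT lithium replicate 3 (0.34). Within set 2 it was 0.34 (0.37). The median over the 29 genes was -0.12, and 0.14 within set 2.

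**Figure D5:**
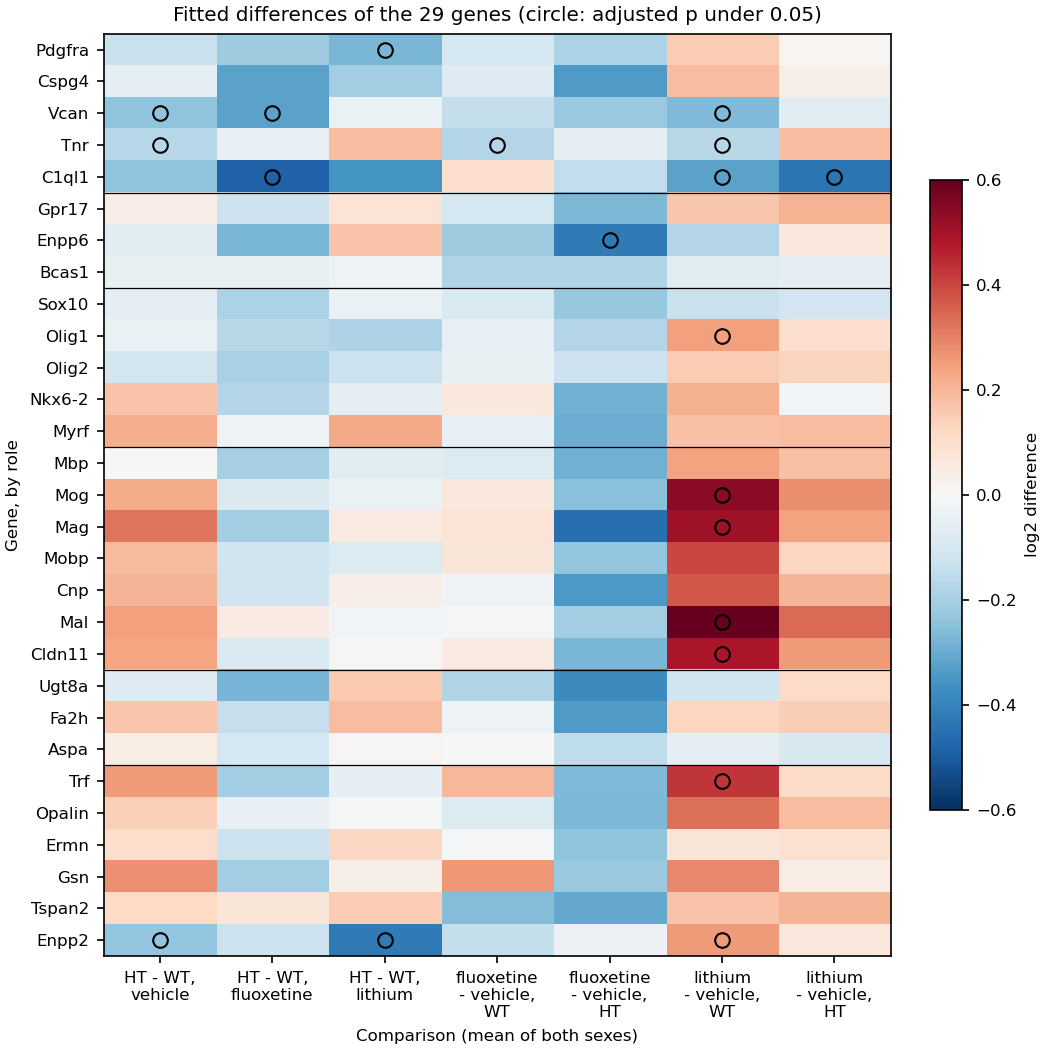
Fitted log2 differences of the 29 genes in the genotype and drug comparisons, as a colour scale with a circle at an adjusted p under 0.05. The genotype calls are of Vcan, Tnr, C1ql1, Pdgfra and Enpp2, and the column for lithium in WT holds most circles. For the genotype under vehicle and for lithium in WT the share called was close to that of all genes (15.0% and 36.1%).

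None of the 29 genes passed between the sexes over all sets with limma (1 at an unadjusted p under 0.05, and none with edgeR), against 0.100% of all genes, although 24 estimates were higher in females (median 0.053). In the fit by library set 25 were higher in females (median 0.12) and Olig2, the factor that specifies the lineage, passed (0.22, adjusted p = 0.025), against 0.497% of all genes in either direction and 0.262% higher.

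Beyond the 29, 65 more genes of the lineage were read: 12 of precursors, 13 of differentiating cells and 40 of myelinating cells. Under vehicle 5 were higher and 7 lower in HT, against 15.0% of all genes in either direction. The smallest p belonged to Susd5 (-0.34, adjusted p = 0.00023), Rras2 (-0.24) and the axonal and glial adhesion molecule Cntn2, which was higher (0.29). Within set 2 none of the 65 passed with limma (4 at an unadjusted p under 0.05), with Susd5 at -0.29, Rras2 at -0.044 and Cntn2 at -0.017, the opposite sign. Under fluoxetine 4 were lower and none higher, against 0.653% of all genes lower: Susd5 (-0.33), Sox8 (-0.24), a relative of Sox10, Car2 (-0.20), a carbonic anhydrase of oligodendrocytes, and Ninj2 (-0.64). Under lithium Car2 was the only one to pass (-0.22, adjusted p = 0.011). Car2 was also lower under vehicle (-0.11, adjusted p = 0.034).

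Among these 65 genes 7 were higher and 7 lower with lithium in WT, against 36.1% of all genes in either direction. They included Qdpr (0.32, adjusted p = 0.00030), Pcdh15 (-0.37, 0.00033), Lgi3 (0.51, 0.0013) and the myelination kinase Fyn (-0.22, 0.0024), none of which passed within set 2. With fluoxetine Omg (-0.20) and Gltp (-0.30) were lower in WT and Itpr2 (-0.26) was lower in HT.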

How the data were processed

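The authors deposited 1 table of signal values, read counts per gene divided by 1 size factor per library; Salmon 0.11.2, R 3.6.0, DESeq2 1.19.11 and GRCm38 are named, without their roles, per the submitters' processing notes. Which annotation release was used, and whether counting used strand, is not given in the sources here, so overlapping genes are uncertain. Whole reads were recovered from the values (100% whole within 0.01 in every library). Symbols came from GENCODE positions on GRCm38. The 29 genes, the gene lists and the tests were chosen with earlier results of these data known.

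log2(value + 1) was fitted with limma 3.58.1 in R 4.3.3 (trend, robust). The 12 groups entered 1 fit, and each effect averages the contrasts of females and males. A gene was tested if its mean reached 5 (17922 genes; 166 left out), with Benjamini-Hochberg adjustment and a threshold of 0.05. Fold changes of low genes are understated on this scale. The test planned for raw counts, edgeR, was run (4.0.16) on the recovered reads as an alternative. Other alternatives were a pseudocount of 5, no filter, a minimum mean of 50, TMM scaling, a replicate block, leaving out each library and fits within library sets. The sets were clusters of libraries (average linkage, Pearson distance) by the gene-centred levels of 361 pseudogenes. Their number was fixed at 3, and they were numbered by the drug libraries they held. The contrasts of set 3 with set 2 and of each sex were chosen after seeing the data. Scripts were tested on simulated data. Named were all 29 genes, up to 4 genes of the other lineage lists with the smallest p per comparison, and at most 3 defining markers per cell type list.

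Replicate numbers did not pair the samples: of 69 same-numbered pairs, 19 deviated together with a correlation over 0.1.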

Additional observations from a re-analysis of the deposited data

Results flagged for a closer look

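In 319 groups of 4 to 10 libraries, the highest or lowest value of a gene was set against its nearest neighbour by Dixon's criterion, which chance meets in about 1 in 20 groups. It was met 8 times, in 7 libraries. High values were Cspg4 at 941 normalised counts in female WT fluoxetine replicate 5 (nearest 750), C1ql1 at 409 in male HT vehicle replicate 5 (290), Olig2 at 756 in female HT fluoxetine replicate 4 (604) and Nkx6-2 at 294 in female WT vehicle replicate 2 (201). Male HT vehicle replicate 7 was high in both Mag (7913, nearest 5356) and Mobp (24902, nearest 17308). Low values were Tnr at 6368 in female WT lithium replicate 5 (nearest 8138) and Ermn at 827 in female HT lithium replicate 4 (994).

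The lithium effect on Tnr differed between HT and WT by a test of the difference itself, at 0.35 on the log2 scale (limma, adjusted p = 0.020), a call that was lost without any one of 3 libraries and within library set 2.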

How the results depend on the processing

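Pseudocount 5, both filters and TMM scaling kept the direction and the side of the threshold of every result. EdgeR called 6 genes in lithium in WT (limma 10). Within library sets no gene of the 29 was called for the genotype under vehicle, fluoxetine in HT, lithium in HT, lithium in WT or the difference of lithium effects (0 each), and 1 was called for sex. There the median was -0.14 for lithium in WT and 0.14 for the difference of lithium effects, and Mog (-0.091), Mag (-0.24), Cldn11 (-0.13), Trf (-0.13), Olig1 (-0.070) and C1ql1 (0.043) reversed in lithium in WT. Without 1 library, counts ranged from 3 to 7 (genotype, vehicle), 0 to 3 (genotype, fluoxetine), 1 to 3 (genotype, lithium), 0 to 7 (fluoxetine in HT), 0 to 1 (fluoxetine in WT), 0 to 2 (lithium in HT), 2 to 14 (lithium in WT) and 0 to 1 (difference of lithium effects); the cause was not tested. With the replicate number as a block, which did not pair the samples (12 of 69 pairs correlated best with their own number), the counts were 0 for fluoxetine in HT, 2 for fluoxetine in WT, 10 for lithium in HT and 17 for lithium in WT. No fluoxetine comparison in WT could be made within a set. The lowest value of any of the 29 genes in a library was 74.6 normalised counts, in Nkx6-2, so counting error weighs most on that gene.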
